A study of Mus musculus with 6 samples.

Results

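The FGF genes described here are 4 receptor genes, Fgfr1, Fgfr2, Fgfr3 and Fgfrl1, 5 ligand genes, Fgf1, Fgf2, Fgf7, Fgf10 and Fgf18, and the feedback inhibitor gene Spry1. They were chosen by symbol, as 10 of the 20071 genes in the deposited count table. The libraries came from mesenchymal stem cells (MSCs) of the bone marrow, the stromal cells that can form osteoblasts, taken from femurs of C57BL/6J mice at 6 weeks of age. Cells of Pcif1fl/fl mice (labelled WT, 3 libraries) and of Prrx1-Cre;Pcif1fl/fl mice (labelled CKO, 3 libraries) were all cultured for 7 days in osteogenic medium, which held dexamethasone at 100 nM, ascorbic acid at 50 μg/mL and β-glycerophosphate at 5 mM, so both groups carried the floxed Pcif1 allele and no undifferentiated culture is compared. Pcif1 encodes the methyltransferase that forms m6Am on mRNAs whose first transcribed base is A, and Prrx1-Cre is a recombinase driven by a limb mesenchyme promoter, so cells of other lineages in the cultures would keep Pcif1.

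FGF ligands are secreted proteins that bind heparan sulfate and receptor tyrosine kinases on the cell surface. Bound receptors signal through the adaptor FRS2 to the RAS-ERK kinases and to PI3 kinase, and ERK turns on ETS and early transcription factors together with inhibitors such as the Sprouty proteins, which damp the signal. In the bone lineage, FGFR1 and FGFR2 act in osteoprogenitors and osteoblasts, FGFR3 is best known from growth plate chondrocytes, FGFRL1 lacks the kinase domain, and FGF2 and FGF18 are ligands with known roles in bone formation.

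The libraries held 20258209 to 28227696 counts. Levels are given in CPM, the counts of a gene scaled to the size of its library, here with edgeR's TMM factors. WT replicate 3 stood apart, with 3.63% of its counts on mitochondrial genes against 1.40% to 1.57% in the other 5 libraries, so the results that it decides are given with and without it. Xist, expressed from the inactive X of female cells, was at 232 to 443 CPM in WT and at 0.722 to 1.79 CPM in CKO libraries, while 4 Y-linked genes summed to 115 to 159 CPM in WT and 219 to 230 CPM in CKO, so the sex of the source mice and the genotype cannot be told apart. The 10 macrophage markers checked (among them Lyz2, at 21980 to 26233 CPM) summed to 30079 to 32988 CPM in WT and 30591 to 33767 CPM in CKO, beside the MSC label, and none of them passed the test. By edgeR 1 was lower and 2 higher at an unadjusted p under 0.05 (11.8% and 9.56% of all genes), and DESeq2 called 2 higher (3.76%). Pcif1 itself was at 39.3 to 42.8 CPM in WT and 37.8 to 39.7 CPM in CKO, with groups that overlapped (log2 fold change -0.085, adjusted p = 0.645, edgeR). It was called in 0 of 15 other fits, so these counts show no loss of Pcif1 mRNA. Counts over a whole gene do not separate the exons that Cre removes.

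Of the 10 FGF genes, 9 had enough counts to be tested, and 4 were lower in CKO at an adjusted p under 0.05 (edgeR's quasi-likelihood test over 13733 genes, Benjamini-Hochberg adjustment). These were Fgfr2, Fgfr3, Fgfrl1 and Spry1. Of all genes tested, 620 or 4.51% were lower and 396 or 2.88% were higher. No FGF gene was higher with all 6 libraries, by edgeR, by DESeq2 (which called 5.26% of all genes lower and 3.76% higher) or at an unadjusted p under 0.05 (11.8% lower and 9.56% higher). Without WT replicate 3, Fgfr1 and Fgf7 were called higher, in a fit that called 10.4% of all genes lower and 11.1% higher. With the further demand of a 2-fold change, which the study used, 3 FGF genes were lower beside 2.50% of all genes, and 0 were higher beside 1.03%. The median log2 fold change of the 9 genes was -0.85, and that of all genes tested was 0.0017. This median is the value of Fgf18, a gene of low counts that was kept for testing through its WT libraries, where it was high. The median is therefore a description only. In bulk libraries, fewer cells of a type and less RNA per cell cannot be told apart.

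The stretches of DNA just before the starts of the 4 called genes are shown because PCIF1, whose gene the Cre targets, acts on the first transcribed base. The 4 genes were picked by their calls, so their common direction follows from that choice. They are from RefSeq on GRCm38.p6, whose table held 9 windows of 300 bases for 8 of the 10 genes. Each run is read 5′ to 3′ on the strand of the gene, has 250 bases before the start and ends with the first 10 transcribed bases. Capitals mark matches on either strand to GGGCGG, known as the GC box, to CCAAT, to the E-box letters CACGTG or to TATAAA, the letters of a TATA box. The runs lie at chr7:130266799-130267058 on the minus strand for Fgfr2, and on the plus strand at chr5:33721474-33721733 for Fgfr3, chr5:108693979-108694238 for Fgfrl1 and chr3:37639697-37639956 for Spry1.
Fgfr2: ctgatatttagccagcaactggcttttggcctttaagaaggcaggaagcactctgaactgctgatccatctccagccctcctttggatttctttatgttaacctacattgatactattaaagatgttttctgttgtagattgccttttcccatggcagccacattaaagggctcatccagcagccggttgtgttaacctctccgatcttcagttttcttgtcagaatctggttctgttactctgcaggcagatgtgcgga
Fgfr3: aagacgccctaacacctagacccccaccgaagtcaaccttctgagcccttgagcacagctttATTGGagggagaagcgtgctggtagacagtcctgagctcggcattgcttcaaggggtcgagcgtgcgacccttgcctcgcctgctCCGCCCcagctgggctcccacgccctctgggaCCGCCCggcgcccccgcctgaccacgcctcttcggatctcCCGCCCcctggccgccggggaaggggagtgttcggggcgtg
Fgfrl1: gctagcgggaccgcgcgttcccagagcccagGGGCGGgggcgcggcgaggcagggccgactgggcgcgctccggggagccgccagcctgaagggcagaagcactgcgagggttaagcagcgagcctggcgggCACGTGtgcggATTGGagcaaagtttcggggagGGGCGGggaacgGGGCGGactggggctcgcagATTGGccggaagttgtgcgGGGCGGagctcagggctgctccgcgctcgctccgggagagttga
Spry1: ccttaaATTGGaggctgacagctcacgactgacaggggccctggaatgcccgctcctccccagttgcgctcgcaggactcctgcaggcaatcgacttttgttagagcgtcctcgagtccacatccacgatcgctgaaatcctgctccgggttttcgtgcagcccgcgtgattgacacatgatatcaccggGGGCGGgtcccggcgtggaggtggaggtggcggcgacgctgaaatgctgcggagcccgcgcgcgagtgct

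The called genes did not share one kind of start. The Fgfr2 window was 43.7% G and C with 4 CG dinucleotides, and the Fgfrl1 window was 73.7% G and C with 37. The windows of Fgfr3 (its first start) and Spry1 lay between them at 69.7% and 64.3%, beside a median of 52.7% over all 32851 windows of the table. The stretches of Fgfrl1 and Fgfr3 held 4 and 3 matches to the GC box, Spry1 held 1, and Fgfr2 held none. The E-box letters stood in the stretch of Fgfrl1, and in the Fgfr2 window they lay past the printed bases. Over the 9 windows of 300 bases, 7 held GGGCGG (35.7% of all windows), 4 held CCAAT (37.4%), 2 held CACGTG (7.15%) and none held TATAAA (13.6%).

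None of the 9 RefSeq starts of the FGF genes had A as its first transcribed base, against 34.4% of all windows. The first base was G for Fgfr2, Fgfrl1, Fgf2, Fgf7 and Fgf10, C for Spry1 and Fgf18, and T for both starts of Fgfr3. The start that a table lists decides this count. In the protein-coding transcripts of the basic GENCODE M21 set, which gives 32 distinct starts for the 10 genes, 7 began with A, or 21.9%, against 32.2% of the starts of all genes. Fgfr2, Fgfr3 and Fgfrl1 had no such start there among 4, 4 and 2, and Spry1 had 1 of 3. Which starts were used in these cells, and the m6Am on them, were not measured by the counts. By an enrichment assay in MSCs, the study reported an m6Am signal near the start of Fgfr2 mRNA that fell without Pcif1. It also reported faster decay of Fgfr2 mRNA and less FGFR2 protein. The annotated first bases were not tested against those measurements.

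Fgfr2 (ENSMUSG00000030849, GRCm38 chromosome 7, 130162451 to 133123350, minus strand) encodes a receptor tyrosine kinase for several FGFs. It was at 94.9, 87.8 and 74.9 CPM in WT replicates 1 to 3 and at 38.4, 41.9 and 38.3 CPM in CKO replicates 1 to 3. Every CKO library lay far below every WT library, and the CKO libraries were close to one another. The log2 fold change was -1.12 (SE 0.11, adjusted p = 0.000744, edgeR), or 2.17-fold lower, and the call held in 15 of 15 other fits. Counts per gene do not separate the splice forms of this receptor that differ in their ligands. Over 3.04% of its exonic length Fgfr2 shares bases with Ctbp2 on the same strand, which was at 31.1 CPM on average in WT and 29.5 CPM in CKO.

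Fgfr3 (ENSMUSG00000054252, chromosome 5, 33721674 to 33737068), the receptor known for its part in the growth plate, was the least abundant of the 4 receptor genes per kilobase. It was at 4.11, 3.82 and 2.55 CPM in WT and at 1.17, 0.946 and 1.11 CPM in CKO, from 71 to 104 and 19 to 26 counts. The groups did not overlap, and WT replicate 3 was the lowest of its group. On the log2 scale the change was -1.69 (SE 0.26, adjusted p = 0.00623, edgeR), or 3.23-fold lower, and held in 15 of 15 other fits. Over 13.9% of its exonic length it shares bases with G630022F23Rik on the other strand, and since the use of strand in counting is not given, reads of the pair could not be separated there.

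Fgfrl1 (ENSMUSG00000008090, chromosome 5, 108692382 to 108706924), which encodes the FGF receptor without a kinase domain, was at 66.7, 57.7 and 52.5 CPM in WT and at 19.7, 21.8 and 18.5 CPM in CKO. The lowest WT library stood at more than double the highest CKO library. Its log2 fold change was -1.56 (SE 0.12, adjusted p = 0.000263, edgeR), or 2.95-fold lower, and held in 15 of 15 other fits. No other annotated gene shares its exons. Fgfr3 and Fgfrl1 lie on the same chromosome, 75.0 Mb apart.

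Fgfr1 (ENSMUSG00000031565, chromosome 8, 25513654 to 25575718) encodes a receptor tyrosine kinase of osteoprogenitors and osteoblasts. It was at 194, 188 and 221 CPM in WT and at 222, 214 and 241 CPM in CKO, and the groups overlapped because WT replicate 3 lay above CKO replicate 2. The log2 fold change was 0.16 (SE 0.10, 95% interval -0.061 to 0.39, adjusted p = 0.389, edgeR). Without WT replicate 3, Fgfr1 was called higher, by 0.24 (adjusted p = 0.0200, edgeR). The whole interval lay above the log2 fold change of Fgfr2.

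The make-up of the receptor mRNA was compared by the ratio of Fgfr1 to Fgfr2. Within a library, this ratio of counts does not depend on scaling, and it was 2.04, 2.15 and 2.95 in WT and 5.78, 5.10 and 6.29 in CKO. The groups did not overlap. An exact two-sided permutation test of the mean log2 ratio gave a p of 0.1, the smallest that 3 libraries against 3 allow. Groups that do not overlap always give this p, so it adds nothing to that description. The mean log2 ratio differed by 1.28, or 2.43-fold. It stayed between 1.18 and 1.45 when each library was left out. Per kilobase of the longest transcript, Fgfr1 made up 66.3% ± 4.49 (SD, n = 3) of the summed Fgfr1, Fgfr2 and Fgfr3 level in WT and 82.9% ± 1.45 in CKO, Fgfr2 made up 32.3% ± 4.15 and 16.6% ± 1.47, and Fgfr3 made up 1.37% ± 0.343 and 0.469% ± 0.0472. These shares rest on one annotated length per gene, whereas the ratio of counts between genotypes does not.

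**Figure D1:**
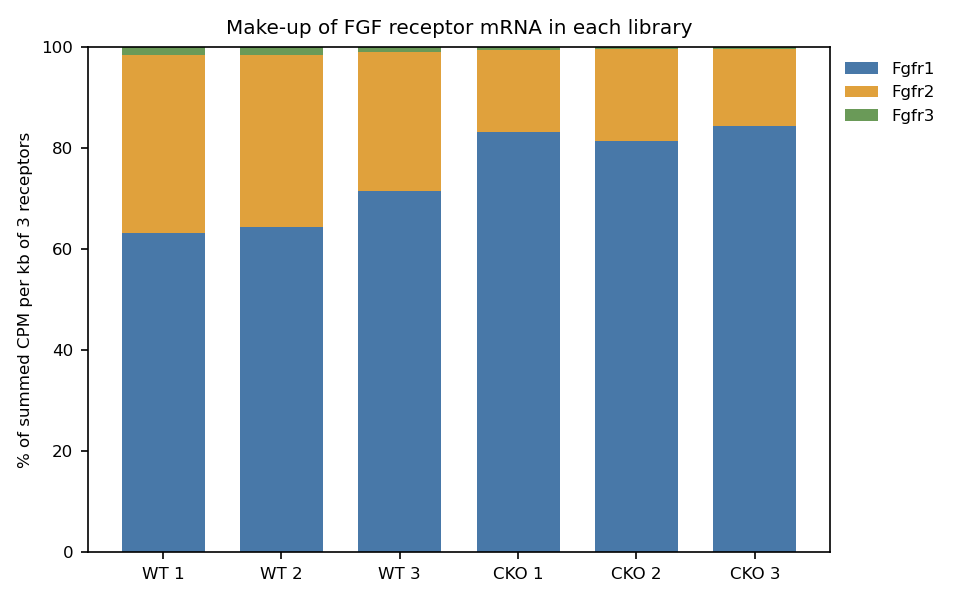
Stacked bars give, for each of the 6 libraries, the percent of the summed CPM per kilobase of Fgfr1, Fgfr2 and Fgfr3 that each gene holds. The Fgfr1 part is 63.2% to 71.5% in the WT libraries and 81.4% to 84.3% in the CKO libraries.

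Among the ligands, none passed the test. Fgf2 (ENSMUSG00000037225, chromosome 3, 37348346 to 37410108), a mitogen of stromal cells, was at 26.8, 26.9 and 41.4 CPM in WT and at 16.8, 22.2 and 22.1 CPM in CKO. Every CKO library lay below every WT library, and WT replicate 3 stood above the other WT libraries. The log2 fold change was -0.64 (SE 0.20, 95% interval -1.10 to -0.19, adjusted p = 0.0976, edgeR). Fgf2 was called lower by DESeq2 (adjusted p = 0.0359), with offsets for GC content and transcript length (adjusted p = 0.0315, edgeR), with these offsets and the replicate number as a block (adjusted p = 0.0325, edgeR) and without WT replicate 3, where the log2 fold change was nearer to 0, at -0.40 (adjusted p = 0.0202, edgeR). Over its alternatives the adjusted p ran from 0.0202 to 0.325. Its exons overlap those of other annotated genes over 13.2% of their length. For the antisense gene Nudt6 this is 9.44%, and Nudt6 was at 2.36 CPM ± 0.915 (SD, n = 3) in WT and 2.52 ± 1.04 in CKO.

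Counting Fgf2 with the called genes, 5 of the 9 tested FGF genes had every CKO library below every WT library, and 0 had every CKO library above. Of all genes tested, 15.7% were lower and 15.0% higher in that sense.

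Fgf7 (ENSMUSG00000027208, chromosome 2, 126034658 to 126091185), a ligand made by stromal cells that acts on the epithelial form of FGFR2, was at 57.6, 52.3 and 91.4 CPM in WT and at 68.2, 86.4 and 65.6 CPM in CKO. The groups overlapped, with WT replicate 3 the highest of all 6 libraries. On the log2 scale the change was 0.13 (SE 0.21, 95% interval -0.36 to 0.61, adjusted p = 0.769, edgeR). Its sign turned, to -0.022 and -0.0024, without WT replicate 2 or CKO replicate 2, and without WT replicate 3 it was called higher, by 0.42 (adjusted p = 0.00762, edgeR). Fgf7 was thus called only where WT replicate 3 was left out.

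Fgf1 (ENSMUSG00000036585, chromosome 18, 38838673 to 38929472), a ligand that binds all of the kinase receptors, was at 2.45, 1.73 and 2.83 CPM in WT and at 0.855, 1.74 and 1.11 CPM in CKO. The groups met at one point, CKO replicate 2 and WT replicate 2. Its log2 fold change was -0.92 (SE 0.33, 95% interval -1.67 to -0.18, adjusted p = 0.143, edgeR), negative in 15 of 15 other fits and called in 0 of them.

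Fgf18 (ENSMUSG00000057967, chromosome 11, 33117430 to 33147400), a ligand of osteoblasts and chondrocytes, was near the limit of what these libraries count. It had 18, 16 and 22 counts in WT and 6, 6 and 13 in CKO, or 0.786, 0.588 and 0.789 CPM against 0.270, 0.299 and 0.625 CPM. The groups overlapped through CKO replicate 3. Fgf18 passed the filter through the WT libraries, where it was high. On the log2 scale the change was -0.85 (SE 0.42, 95% interval -1.80 to 0.10, adjusted p = 0.291, edgeR). It moved to -1.32 without CKO replicate 3, and over all 6 libraries left out in turn it ran from -1.32 to -0.62.

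Fgf10 (ENSMUSG00000021732, chromosome 13, 118669791 to 118792115), a mesenchymal ligand best known from lung and limb buds, was too low to be tested. It had 3, 4 and 10 counts in WT and 15, 7 and 15 in CKO, or 0.131, 0.147 and 0.359 CPM against 0.675, 0.348 and 0.722 CPM, and the groups overlapped. The ratio of the mean levels was 2.74, or 1.45 on the log2 scale, and 2.07 on that scale without WT replicate 3. The adjusted p was 0.252 by edgeR without the filter and 0.272 by DESeq2. Without WT replicate 1, 2 or 3 or CKO replicate 2 it passed the filter through the CKO libraries alone, where it was high, so no call is taken from those fits.

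Spry1 (ENSMUSG00000037211, chromosome 3, 37639947 to 37644598), the Sprouty inhibitor of receptor tyrosine kinase signaling, was at 84.9, 66.9 and 72.2 CPM in WT and at 42.2, 41.8 and 44.5 CPM in CKO. The CKO libraries were tightly grouped below all WT libraries. Its log2 fold change was -0.80 (SE 0.11, adjusted p = 0.00366, edgeR), or 1.74-fold lower, which is under the 2-fold limit of the study, and the call held in 15 of 15 other fits. Over 24.4% of its exonic length it shares bases with Gm42922 on the other strand, and reads of the pair could not be separated there. Spry1 lies 229.8 kb from Fgf2 on the same chromosome.

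**Figure D2:**
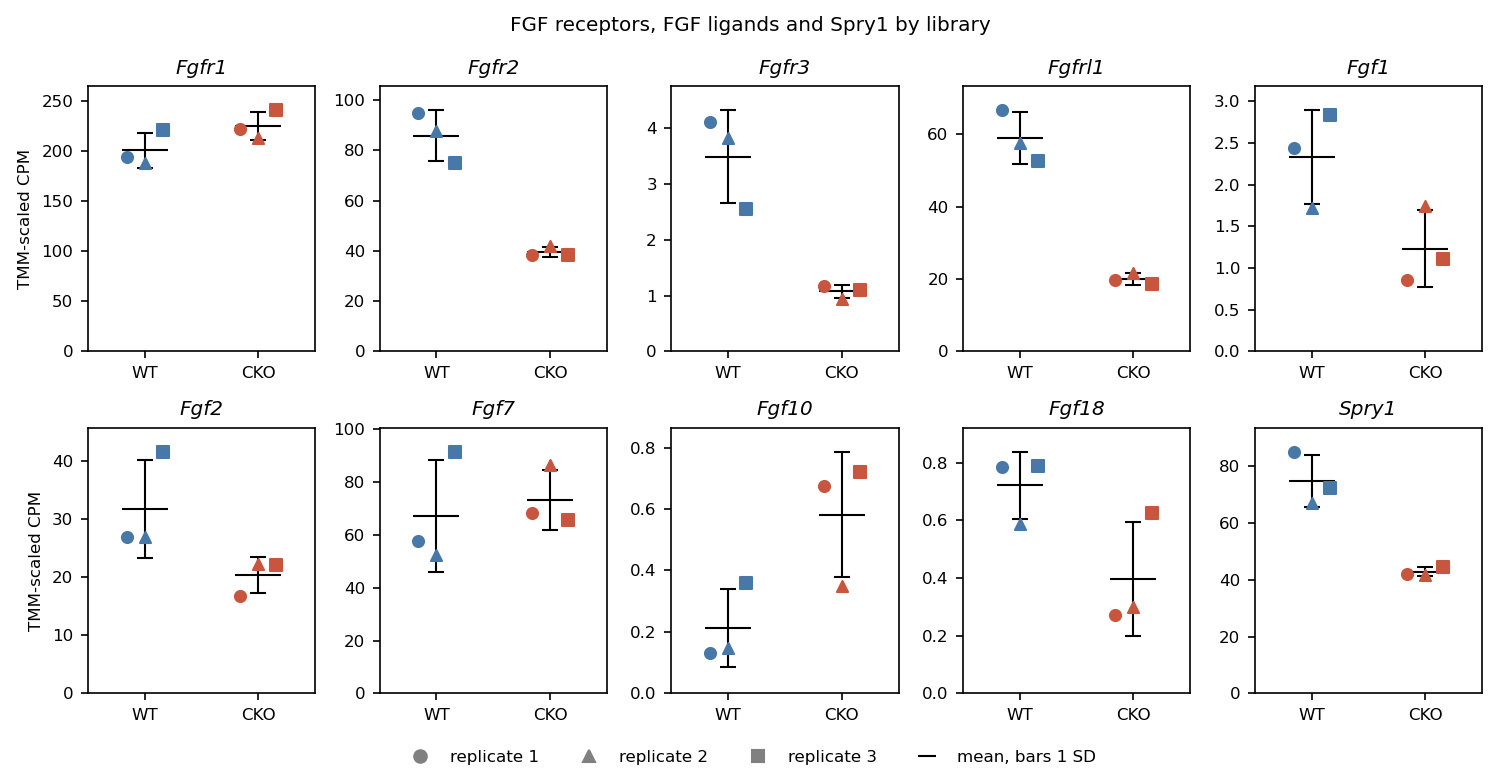
Points give the TMM-scaled CPM of each of the 10 genes in WT and CKO replicates 1 to 3 on linear axes from 0, with the mean as a line and 1 SD as bars. The groups are apart for Fgfr2, Fgfr3, Fgfrl1, Fgf2 and Spry1, and WT replicate 3 (square) is the highest library for Fgf7 and Fgf2.

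**Figure D3:**
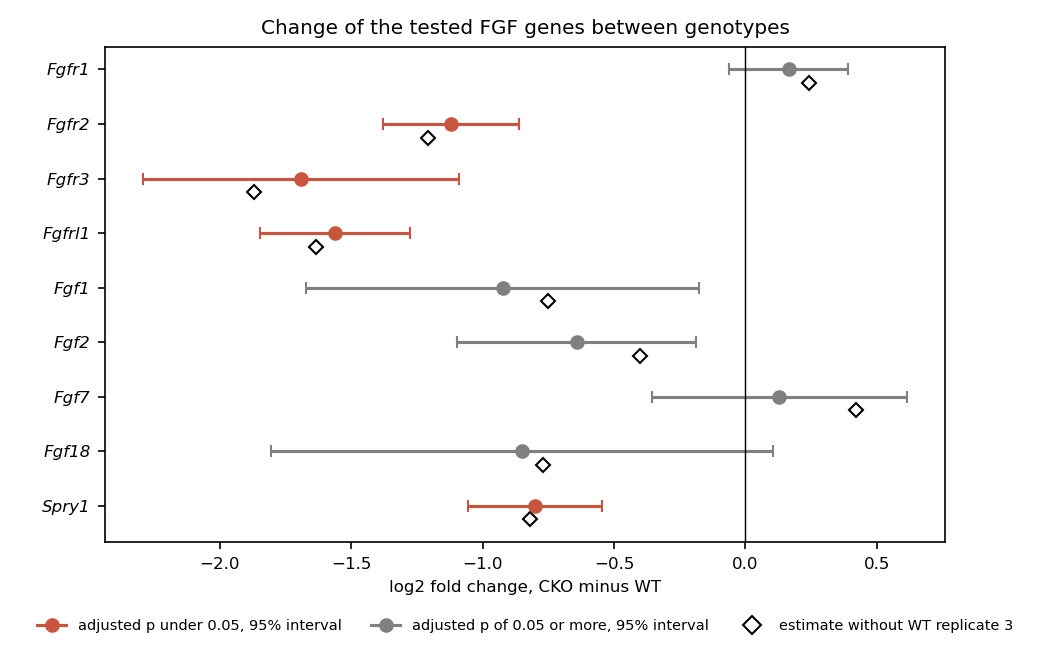
Filled points give edgeR's log2 fold change (CKO minus WT) of the 9 tested genes with its 95% interval, in red where the adjusted p was under 0.05, and open diamonds give the estimate without WT replicate 3. Fgfr3 is farthest from 0 at -1.69, and the intervals of Fgfr1, Fgf7 and Fgf18 include 0.

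Levels per kilobase of the longest transcript put the genes in 3 broad tiers. In WT, Fgfr1 was at 39.9 ± 3.49 CPM per kb (SD, n = 3), Spry1 at 26.9 ± 3.34, Fgfrl1 at 25.3 ± 3.08, Fgf7 at 25.1 ± 7.93 and Fgfr2 at 19.4 ± 2.29. The neighbours Spry1, Fgfrl1 and Fgf7 did not differ beyond their spread. Fgf2 followed at 5.31 ± 1.41, and Fgfr3, Fgf18, Fgf1 and Fgf10 were all under 1 CPM per kb. In CKO the order began with Fgfr1 at 44.7 ± 2.80 and Fgf7 at 27.5 ± 4.24, followed by Spry1 at 15.4 ± 0.543, with Fgfr2 at 8.92 ± 0.458 and Fgfrl1 at 8.58 ± 0.703 within their spread of each other. The order at the top depends on the length used: per kilobase of all annotated exons, Fgfr1 was the fourth in WT, at 20.4 CPM per kb.

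The other FGF pathway genes were read from lists by role, with 93 genes listed, 88 in the table and 71 tested. Of these, 3 were lower and 8 higher in CKO, beside 4.51% and 2.88% of all genes, and their median log2 fold change was 0.081. Without WT replicate 3 the counts were 11 lower and 22 higher, in a fit that called 10.4% and 11.1% of all genes, and without WT replicate 2 or any 1 of the CKO replicates they were 0 to 1 lower and 2 to 4 higher.

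Of the 18 other FGF ligands and receptors, 14 were in the table and 3 had enough counts to be tested. Fgfr4, the fourth kinase receptor, had a value above 0 in WT replicate 2 alone, at 0.0368 CPM. The 3 tested genes, named after their values were seen, encode FGF homologous factors that stay inside the cell. Fgf11 was at 2.27, 4.15 and 3.16 CPM in WT and 1.80, 1.29 and 1.64 CPM in CKO (log2 fold change -1.02, adjusted p = 0.0654, edgeR). Fgf14 was at 2.10, 2.50 and 3.73 CPM in WT and 4.46, 4.83 and 4.76 CPM in CKO (log2 fold change 0.75, adjusted p = 0.101, edgeR), and Fgf13 changed by -0.14. None passed the test, with 1 lower and 1 higher at an unadjusted p under 0.05, and DESeq2 called 1 lower. Without WT replicate 3, edgeR called 1 lower and 1 higher, beside 10.4% and 11.1% of all genes.

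Of the genes for co-receptors and heparan sulfate, the sugar chain that holds FGFs at the cell surface, 22 were tested, with a median of 0.038. Of these, 2 were lower and 1 higher, beside 4.51% and 2.88% of all genes. Without WT replicate 3 there were 6 lower and 4 higher, beside 10.4% and 11.1%. At an unadjusted p under 0.05, 5 were lower and 4 higher, beside 11.8% and 9.56%. DESeq2 called 3 lower and 3 higher, beside 5.26% and 3.76%. Hs3st1, a 3-O-sulfotransferase, was at 1.31, 1.51 and 1.79 CPM in WT and 3.24, 3.68 and 3.85 CPM in CKO, 2.32-fold higher (adjusted p = 0.0104, edgeR). Hs6st2, a 6-O-sulfotransferase encoded on the X chromosome, was at 39.6 to 41.3 CPM in WT and 26.8 to 29.7 CPM in CKO (log2 fold change -0.51, adjusted p = 0.0141, edgeR). Sulf1, which removes 6-O-sulfate, was at 153 to 179 CPM in WT and 110 to 126 CPM in CKO (log2 fold change -0.45, adjusted p = 0.0289, edgeR). All 3 had groups that did not overlap, and each lost its call in some fits with a library left out. For Hs3st1 these were the fits without CKO replicate 2 (adjusted p = 0.0516, edgeR) and CKO replicate 3 (adjusted p = 0.0599, edgeR). Hs6st2 and Sulf1 lost it without WT replicate 2 and without each CKO replicate, at an adjusted p of up to 0.107 and 0.137 (edgeR).

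Of the 22 adaptors and ERK pathway kinases tested, 1 was lower and none higher, beside 4.51% and 2.88% of all genes, with a median of -0.039. Without WT replicate 3 there were 3 lower and 2 higher, beside 10.4% and 11.1%. The one lower with all libraries was Pik3r1, a regulatory subunit of PI3 kinase, at 329, 343 and 422 CPM in WT and 231, 256 and 223 CPM in CKO (log2 fold change -0.63, adjusted p = 0.0149, edgeR), a call that was lost without CKO replicate 1 or CKO replicate 3 (adjusted p = 0.0937 in both, edgeR). At an unadjusted p under 0.05, 3 were lower and 2 higher, beside 11.8% and 9.56% of all genes, and DESeq2 called 1 lower and 0 higher. Frs2, the docking protein of the FGF receptors, was at 66.6 to 91.5 CPM in WT and 70.0 to 71.5 CPM in CKO (log2 fold change -0.10, 95% interval -0.40 to 0.20). Its sign turned to 0.063 without WT replicate 3.

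Of the 13 other feedback inhibitors and modulators tested, 1 was higher and none lower, beside 2.88% and 4.51% of all genes, with a median of 0.35. Dusp6, the phosphatase that switches ERK off, was at 140, 125 and 123 CPM in WT and 170, 196 and 162 CPM in CKO (log2 fold change 0.45, SE 0.10, adjusted p = 0.0380, edgeR). This call was lost without WT replicate 2 and without each CKO replicate, at an adjusted p of 0.0871 to 0.150 (edgeR). At an unadjusted p under 0.05, 7 were higher and 1 lower, beside 9.56% and 11.8% of all genes, and DESeq2 called 3 higher and 0 lower, beside 3.76% and 5.26%. Without WT replicate 3, edgeR called 6 higher and 1 lower, beside 11.1% and 10.4%. The sister genes of Spry1 had values on the other side of 0. Spry2 was at 10.5, 8.09 and 5.77 CPM in WT and 13.5, 12.0 and 13.8 CPM in CKO (log2 fold change 0.69, adjusted p = 0.0948, edgeR), and was called higher by DESeq2 (adjusted p = 0.0322) and without WT replicate 3 (adjusted p = 0.0174, edgeR) or WT replicate 1 (adjusted p = 0.0366, edgeR). Spry4 was at 9.14 to 11.0 CPM in WT and 11.4 to 13.1 CPM in CKO (log2 fold change 0.35, adjusted p = 0.183, edgeR). The difference between Spry1 and its sister genes was not tested.

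Of the 11 ETS and early transcription targets tested, 6 were higher and none lower, beside 2.88% and 4.51% of all genes, with a median of 0.64. The count of 0 lower was the same at an unadjusted p under 0.05 (11.8% of all genes) and by DESeq2 (5.26%). Without WT replicate 3, 9 were higher and 0 lower, in a fit that called 11.1% and 10.4% of all genes. Without WT replicate 1 or CKO replicate 2, 4 were higher, and without WT replicate 2, CKO replicate 1 or CKO replicate 3, 2 were higher. Egr1, an immediate early transcription factor, was at 15.5, 16.9 and 34.9 CPM in WT and 106, 66.2 and 116 CPM in CKO, 4.27-fold higher (log2 fold change 2.10, SE 0.33, adjusted p = 0.00705, edgeR). Ccnd1, which encodes cyclin D1, was at 406, 379 and 354 CPM in WT and 611, 649 and 599 CPM in CKO, 1.63-fold higher (log2 fold change 0.71, SE 0.09, adjusted p = 0.00248, edgeR). Over 23.4% of its exonic length Ccnd1 shares bases with LTO1 on the other strand, and reads of the pair could not be separated there. Egr1 and Ccnd1 kept their calls in 15 of 15 other fits. These genes answer to many growth signals and not to FGF alone.

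The other 4 of the higher early genes moved less or were less certain. Fos was at 12.4 to 15.4 CPM in WT and 20.0 to 28.6 CPM in CKO (log2 fold change 0.81, adjusted p = 0.0191, edgeR), Ier2 was at 21.9 to 24.6 and 30.9 to 35.4 CPM (log2 fold change 0.51, adjusted p = 0.0242, edgeR). The ETS factor Etv4 was at 3.28 to 4.91 and 6.66 to 8.56 CPM (log2 fold change 0.92, adjusted p = 0.0264, edgeR), and Fosl1, named after its values were seen, was at 2.05 to 2.22 and 3.33 to 5.22 CPM (log2 fold change 0.96, adjusted p = 0.0349, edgeR). Over 57.2% of its exonic length Fosl1 shares bases with Ccdc85b on the other strand, and reads of the pair could not be separated there. In none of these 4 did the groups overlap. Each lost its call when WT replicate 2, CKO replicate 1 or CKO replicate 3 was left out, Etv4, Fos and Fosl1 also without WT replicate 1, and Etv4 and Ier2 also without CKO replicate 2, with an adjusted p from 0.0501 to 0.160 (edgeR). Etv5, a close relative of Etv4, was at 61.8 to 79.6 CPM in WT and 74.6 to 90.0 CPM in CKO, with groups that overlapped (log2 fold change 0.15, adjusted p = 0.553, edgeR).

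**Figure D4:**
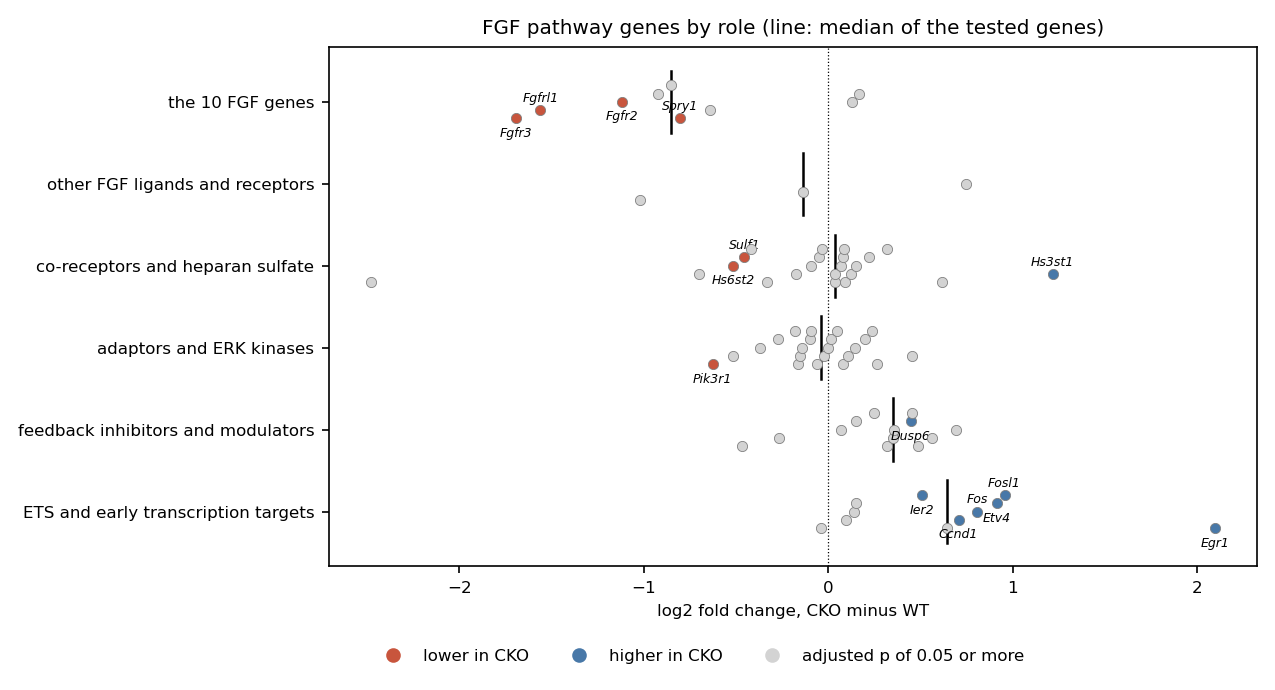
Each point is the log2 fold change (CKO minus WT, edgeR) of 1 tested gene, in rows by role, coloured where the adjusted p was under 0.05, with a line at the median of each row. The row of the 10 FGF genes, of which 9 were tested, has its median at -0.85 (the value of Fgf18). The row of ETS and early targets has it at 0.64, while the adaptors and kinases lie around 0.

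Some markers of the stromal, adipocyte and osteoblast lists also differed between the genotypes. Of 9 stromal markers, 5 were lower (Cxcl12, Lepr, Eng, Vcam1 and Pdgfra) and 1 was higher (Thy1), beside 4.51% and 2.88% of all genes, which is the background of each list here, and the summed level was 3683 to 4174 CPM in WT and 1214 to 1301 CPM in CKO, with Cxcl12 at 2895 to 3335 CPM in WT and 498 to 607 CPM in CKO. Prrx1, whose promoter drives the Cre, was at 211 to 283 CPM in WT and 276 to 283 CPM in CKO (log2 fold change 0.25, adjusted p = 0.303, edgeR). Of 7 adipocyte markers, 4 were lower, among them Adipoq, at 42.9 to 53.8 CPM in WT and 0.289 to 1.49 CPM in CKO, and Plin1, listed at 0 in every CKO library, while the sum of the list, 876 to 1113 CPM in WT and 878 to 1118 CPM in CKO, was mostly that of Cd36 and Lpl, which were not called. Adipoq, Plin1 and Cidec, all among the lower ones, passed the filter through the WT libraries, where they were high. Fabp4 of the same list, named after its values were seen, was at 66.3 to 78.8 CPM in WT and 85.3 to 107 CPM in CKO (log2 fold change 0.46, adjusted p = 0.0545, edgeR), and DESeq2 called 1 adipocyte marker higher. Of 7 tested osteoblast markers, 3 were lower (Sp7, Alpl and Ibsp) and Col1a1 was higher, with sums of 14583 to 20715 and 17888 to 26651 CPM that were mostly those of Spp1 (not called) and Col1a1, and the late marker Bglap was under 0.25 CPM in every library. The part of these cell types in the levels of Fgfr2, Fgfr3, Fgfrl1 and Spry1 was not tested.

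The other lists of cell type markers held few calls, beside 4.51% of all genes lower and 2.88% higher. Of the chondrocyte markers 1 was lower, with sums of 38.7 to 50.1 CPM in WT and 32.7 to 38.9 CPM in CKO, and DESeq2 also called 1 higher. Of the neutrophil markers, 1 was higher, with sums of 1.00 to 1.14 and 1.30 to 1.98 CPM. It was S100a8, which passed the filter through the CKO libraries, where it was high. Endothelial markers (31.9 to 44.7 against 29.5 to 34.7 CPM) and smooth muscle markers (488 to 651 against 536 to 563 CPM) had none called by edgeR and 1 lower in each list by DESeq2, with 1 and 2 lower and 1 and 0 higher at an unadjusted p under 0.05. Epithelial markers were at 0.674 CPM or less in sum and none was tested.

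Of the 12636 genes with a mean of at least 1 CPM, the ones whose levels followed Fgfr2 most closely over the 6 libraries were Abat, Cyp1b1 and Fam43a, with root mean square differences of 0.0780, 0.0843 and 0.103 in centred log2 CPM. Those nearest to Fgfr1, the FGF gene with the highest log2 fold change among those tested, were Zbtb21, Prep and Sh2b2, at 0.0259, 0.0333 and 0.0361. The 6 points share the 2 genotypes, and this likeness is a description with no test.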

How the data were processed

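Poly(A) RNA of 3 WT and 3 CKO libraries was sequenced by the authors in paired reads of 150 bases and mapped to mm10 with HISAT2. The deposited values are raw counts of reads per gene, not normalized by the authors, and the counting tool, annotation and use of strand are not given in the sources used here. The submitters' processing notes also name FastQC and DESeq2. The labels give 3 replicates per genotype, whereas the design text speaks of duplicates, and nothing says that replicates came from separate mice, so p-values measure only the spread between these libraries, which may be technical. No replicate pair agreed within counting noise.

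Of 20163 rows, 92 repeated an Ensembl ID with the same counts and were used once. The test was the quasi-likelihood test of edgeR 4.0.16 under R 4.3.3, without covariates, on TMM-scaled counts of the 13733 genes kept by filterByExpr, with Benjamini-Hochberg adjustment over all of them. A call was an adjusted p under 0.05 at any fold. The standard error is the log2 fold change over the square root of F. Positions, lengths and overlaps came from GENCODE M21 on GRCm38 (mm10). Libraries held 20258209 to 28227696 counts. Intervals cover the spread between libraries, not PCR duplicates.

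Alternatives were DESeq2 1.42.0, limma 3.58.1 (voom), RLE and total-count scaling, no filter, a mean of at least 10 counts, the replicate number as a block, offsets for GC content and length (splines with 5 degrees of freedom), both together, a 2-fold limit, and leaving out each library in turn. Named genes were all 10 FGF genes, Pcif1 and the sex-linked genes, up to 4 called genes per pathway list (those of smallest p), Fgfr4, Frs2, Spry2, Spry4, Dusp6, Etv4 and Etv5, and the 3 nearest genes of Fgfr2 and of the FGF gene with the highest log2 fold change, by the root mean square difference of log2(CPM + 0.01). The members, the lists and the rule were chosen with earlier results of these data known.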

Additional observations from a re-analysis of the deposited data

How the results depend on the processing

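The calls of Fgfr2, Fgfr3, Fgfrl1 and Spry1 held in all 15 other fits, with log2 fold changes of -1.21 to -1.04, -1.87 to -1.56, -1.63 to -1.46 and -0.87 to -0.70 over the libraries left out. The FGF genes called lower then numbered 4 to 5, and those called higher 0 to 3, the 3 arising without WT replicate 3, where 1 of them, Fgf10, passed the filter through the CKO libraries alone. With a 2-fold limit, 343 of all genes were lower and 142 higher, and 0 lower and 2 higher among the other FGF pathway genes. Over the libraries left out in turn, all genes called ran from 324 to 1447 lower and from 148 to 1544 higher, the highest of both without WT replicate 3 and the lowest without CKO replicate 1, and the other FGF pathway genes from 0 to 11 lower and from 2 to 22 higher. Fits that leave out a library have fewer samples. DESeq2 called 5 of the other FGF pathway genes lower and 13 higher, and the offsets for GC content and length gave 13 higher. The log2 fold change of Fgf7 turned to -0.022 without WT replicate 2 and to -0.0024 without CKO replicate 2, and ran up to 0.42 without WT replicate 3, and that of Frs2 turned to 0.063 without WT replicate 3 and ran down to -0.18 without WT replicate 2. Apart from fits with fewer samples, the cause was not tested. The log2 ratio of Fgfr1 to Fgfr2 differed by 1.18 to 1.45 over the libraries left out.

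Replicate numbers did not pair the libraries: deviations of same-numbered WT and CKO libraries correlated at 0.064, -0.050 and -0.0016, and not every library correlated best with its own number. With the replicate block, 4 FGF genes were lower and 0 higher, and 1 of the other FGF pathway genes was lower and 6 higher, and the calls of Hs6st2, Sulf1, Dusp6, Ier2 and Fosl1 were lost (adjusted p from 0.0514 to 0.0770, edgeR). With the block and the offsets together, Ier2 and Fosl1 were not called (adjusted p of 0.0822 and 0.0832, edgeR). Low counts limit Fgf10 and Fgf18, with 3 to 22 counts per library.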
